A study of Mus musculus with 12 samples.

Results

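The spleens of mice that carried tumors and received αCSF1R or control IgG (Ctrl-IgG) were compared here by the T cell receptor (TCR) repertoire of their CD8+ T cells. The members were all clonotypes listed for these 2 spleen libraries in the deposited clonotype table, 239637 of the 1502315 that the 12 libraries of the series list by CDR3 nucleotide sequence. A clonotype is taken below as a chain with its V region, its J region and the amino acid sequence of its CDR3, the loop that V(D)J joining creates. By that definition the αCSF1R spleen held 99534 clonotypes and the Ctrl-IgG spleen 123360, and 209093 different ones were seen in all. The mice were wild type, were bought at 6 to 8 weeks of age and carried tumors of Q1-2, a line of mouse oral squamous cell carcinoma from C57BL/6 mice. αCSF1R is clone AFS98 on a mouse IgG2a backbone, and blocks the receptor that macrophages need for survival. Per the labels, αCSF1R and control IgG were both given at an equivalent dose of 30 mg/kg, 3 times at intervals of 3 days. A drawing of the experiment gives a lower dose for control IgG, so whether the doses were equal is not settled. CD8+ T cells were taken from the spleen with magnetic beads, RNA of 3 mice was mixed, and 1 library was made of 100 ng RNA per treatment. With 1 library a side there is no replicate error, so no difference below has a test against the spread between mice, and all intervals are 95% intervals that cover counting error only. The study had a further pair of spleen libraries, from mice given IL-10-Fc (IL-10 on an antibody Fc part) or BF10 (αCSF1R fused to IL-10). They are quoted where they show how far spleen libraries of this study lie apart.

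As background, each αβ T cell joins a Trbv, a Trbd and a Trbj segment for its β chain and a Trav and a Traj segment for its α chain, and trims and adds bases at the joints. Most naive clones are small and belong to a single mouse, so the same β chain is rarely found in 2 animals. Joints that need few or no added bases form again and again and give public chains, found in many mice. Clones that have divided after meeting antigen appear as clonotypes with many UMIs, in most cases with a single CDR3 nucleotide sequence. A public clonotype with many UMIs instead often gathers several nucleotide sequences that encode the same amino acids. A UMI is a molecular tag put on each cDNA, so that reads from copies of 1 molecule are counted once. Intervals of UMI shares take each UMI as a separate draw. UMIs of 1 cell or clonotype share V, J and CDR3, so these intervals can be too narrow.

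The largest β chain clonotypes of each spleen show these kinds, and their sequences are printed because the comparison of sizes turns on them. Each is the CDR3 nucleotide sequence with most UMIs of its clonotype, 5′ to 3′, from the conserved cysteine codon to the last CDR3 residue. Capitals mark the bases that match neither the germline V nor the germline J segment, which include what is left of Trbd. The first 4 lead the αCSF1R spleen, the next 3 lead the Ctrl-IgG spleen, and the last 2 are among those with the highest UMI share in both.
αCSF1R, Trbv1 and Trbj2-1: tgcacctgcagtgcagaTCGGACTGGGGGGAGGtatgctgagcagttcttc
αCSF1R, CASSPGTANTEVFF, Trbv3 and Trbj1-1: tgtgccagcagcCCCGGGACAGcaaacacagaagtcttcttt
αCSF1R, Trbv5 and Trbj1-3, larger: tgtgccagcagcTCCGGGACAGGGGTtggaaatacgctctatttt
αCSF1R, Trbv5 and Trbj1-3, smaller: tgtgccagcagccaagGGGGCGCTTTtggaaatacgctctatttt
Ctrl-IgG, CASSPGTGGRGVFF, Trbv29 and Trbj1-1: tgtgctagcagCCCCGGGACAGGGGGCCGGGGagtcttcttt
Ctrl-IgG, Trbv29 and Trbj2-5: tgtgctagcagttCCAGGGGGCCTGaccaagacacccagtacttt
Ctrl-IgG, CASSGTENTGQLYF, Trbv15 and Trbj2-2: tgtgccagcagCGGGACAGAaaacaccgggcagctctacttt
both, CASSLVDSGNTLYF, Trbv16 and Trbj1-3: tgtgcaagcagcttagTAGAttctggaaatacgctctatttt
both, Trbv1 and Trbj1-1, 14 residues: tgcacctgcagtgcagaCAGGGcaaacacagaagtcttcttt

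Depth was close between the libraries in UMIs and unlike in reads. UMIs with at least 3 reads, the count used throughout, came to 269407 in the αCSF1R spleen and 273833 in the Ctrl-IgG spleen. The β chain (TRBC) took 154643 and 153435 of them and the α chain (TRAC) 109939 and 115039. Each UMI had been read more often in the αCSF1R library, where 57.3% of these UMIs had at least 7 reads, against 40.9% for Ctrl-IgG, 36.6% for IL-10-Fc and 38.8% for BF10. The αCSF1R library stands apart from the other 3 spleen libraries in this measure, and its part in the clonotype numbers and sizes below was not tested. As a check of the label, the γ and δ chains of γδ T cells took 1.79% (1.74% to 1.84%) and 1.96% (1.91% to 2.01%) of UMIs and β and α chains the rest. In the IL-10-Fc and BF10 spleens the γ and δ chains took 0.677% and 2.30%. These shares do not measure how many of the αβ T cells were CD8+. The files hold TCR chains only, so Cd8a, Cd8b1 and Cd4 were not measured.

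The αCSF1R spleen held fewer β chain clonotypes than the Ctrl-IgG spleen at almost the same number of UMIs. It listed 60531 β chain clonotypes, whereas Ctrl-IgG listed 74305, BF10 80430 and IL-10-Fc 92465. At 153435 UMIs the expected numbers were 60373 (60178 to 60568) for αCSF1R and 74305 (74040 to 74570) for Ctrl-IgG, a ratio of 0.813 (0.809 to 0.816). For the α chain, 37751 and 47400 clonotypes were listed, and the ratio at 109939 UMIs was 0.811 (0.807 to 0.816). Of the 4 spleens, the αCSF1R spleen had the lowest number of clonotypes of both chains. With UMIs of at least 7 reads the ratios were 0.875 for the β chain and 0.880 for the α chain. With clonotypes of at least 2 UMIs they were 0.973 and 0.930, nearer to 1. In bulk RNA, fewer cells of a clone and less TCR RNA per cell cannot be told apart.

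The gap lay in clonotypes with 1 or 2 UMIs. Clonotypes with a single UMI made up 33.2% of β chain clonotypes for αCSF1R (32.8% to 33.6%) and 44.4% for Ctrl-IgG (44.0% to 44.7%), and 52.9% for IL-10-Fc and 49.5% for BF10. Among α chains the single-UMI shares were 30.2% and 40.2%. In turn, β chain clonotypes with 3 or 4 UMIs held 37.1% of UMIs for αCSF1R and 31.4% for Ctrl-IgG, and those with 5 to 9 UMIs held 21.6% and 14.7%. The mean was 2.55 UMIs per β chain clonotype for αCSF1R and 2.06 for Ctrl-IgG. Of the 4 libraries αCSF1R was at one end in every class up to 19 UMIs, in both chains, as the plot of UMIs by clonotype size shows.

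**Figure D1:**
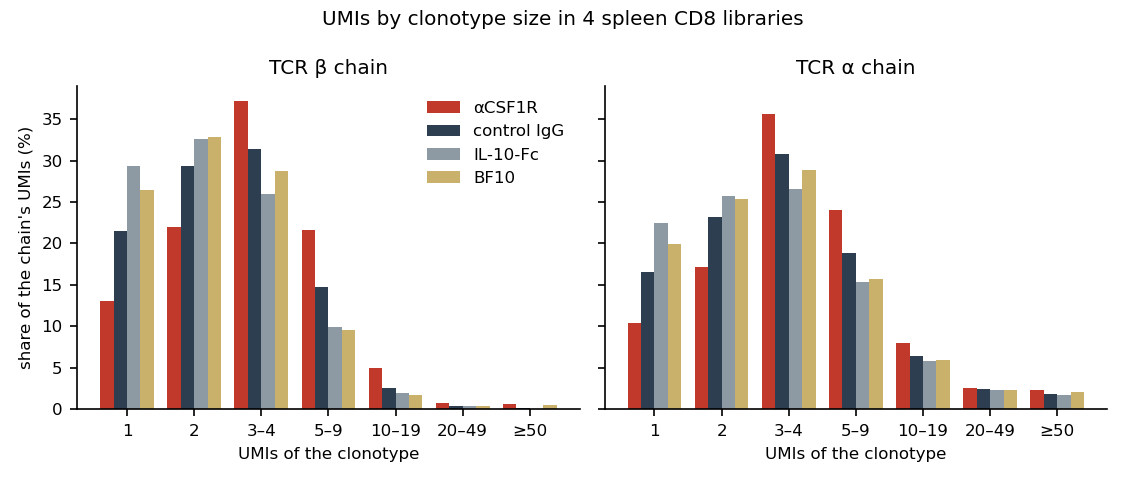
Share of each chain's UMIs (y axis, %) in clonotypes of 1 to at least 50 UMIs (x axis) in the 4 spleen CD8 libraries, 1 bar per library. For the β chain αCSF1R has 21.9% of its UMIs in clonotypes of 2 UMIs and Ctrl-IgG 29.3%, and the order is turned from 3 UMIs upwards.

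Large clonotypes, those of at least 10 UMIs, were more numerous in the αCSF1R spleen. At least 10 UMIs were reached by 685 β chain clonotypes for αCSF1R and 357 for Ctrl-IgG, next to 278 for IL-10-Fc and 235 for BF10. These held 6.36% and 3.03% of β chain UMIs. Among α chains the numbers were 821 and 700, next to 676 and 675. At least 20 UMIs were reached by 53 and 23 β chain clonotypes, next to 20 and 28. For α chains these numbers were nearly equal, 125 and 124, next to 131 and 127. At least 50 UMIs were reached by 5 and 1 β chain clonotypes, next to 0 for IL-10-Fc and 7 for BF10. The counts at 10 UMIs depend on the reads asked of a UMI. With UMIs of at least 7 reads, 129 and 24 β chain clonotypes reached 10 UMIs, a ratio of 5.38 in place of 1.92, and 227 and 75 α chain clonotypes, 3.03 in place of 1.17. At that setting the αCSF1R library keeps 57.5% of its β chain and 57.0% of its α chain UMIs and the Ctrl-IgG library 42.6% and 38.6%, so the totals are no longer close. The 100 largest β chain clonotypes held 1.90% of UMIs for αCSF1R (1.84% to 1.97%) and 1.22% for Ctrl-IgG (1.17% to 1.28%), a difference of 0.68 percentage points (0.60 to 0.77). Without the single largest clonotype of each library this difference was 0.37 points. The 100 largest α chain clonotypes held 4.34% and 3.84%, a difference of 0.51 points (0.34 to 0.67). Even so, nearly all of each repertoire lay outside its largest clonotypes.

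The large β chain clonotypes were then split by whether at least 90% of their UMIs carried a single nucleotide sequence. For αCSF1R 385 of 685 did so and for Ctrl-IgG 140 of 357, and these clonotypes held 3.78% and 1.24% of β chain UMIs. The remaining clonotypes, built from several nucleotide sequences, numbered 300 and 217 and held 2.58% and 1.79%. Among the clonotypes that reached 10 UMIs with at least 7 reads, 68 and 7 β chains and 71 and 17 α chains had such a leading sequence. Among the 385, Trbv19 was used by 116, or 30.1% (25.8% to 34.9%), and Trbv29 by 95, or 24.7% (20.6% to 29.2%). Among the 140 of Ctrl-IgG, Trbv29 was used by 46, or 32.9%, and Trbv19 by 37, or 26.4%. In both spleens these segments thus took a higher share of large single-sequence clonotypes than of all β chain UMIs, where Trbv19 had 11.4% and 9.77% and Trbv29 13.3% and 13.2%. Among α chains 332 of 821 and 239 of 700 large clonotypes carried a leading sequence of that kind. Of α chain clonotypes with at least 20 UMIs, 32 and 36 did so.

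The top of the αCSF1R β chain list was 1 clonotype of Trbv1 and Trbj2-1 with a CDR3 of 17 residues. It had 609 UMIs, 0.394% of β chain UMIs (0.364% to 0.426%), and 600 of them carried the nucleotide sequence printed above. It was at 0 UMIs in the Ctrl-IgG, IL-10-Fc and BF10 spleens. A count of 0 among the β chain UMIs of the Ctrl-IgG spleen allows a share of up to 0.00196% (3 UMIs), so its share was at least 201-fold higher for αCSF1R. Of the tumor and tumor-draining lymph node (tdLN) libraries it was listed in those of αCSF1R alone, with 120 UMIs in the tumor and 15 in the tdLN. Its sequence has 16 bases between the germline ends.

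The next clonotypes of the αCSF1R list were also at 0 in the Ctrl-IgG spleen. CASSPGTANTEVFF with Trbv3 and Trbj1-1 had 122 UMIs for αCSF1R, 0 for Ctrl-IgG, 5 for IL-10-Fc and 1 for BF10, and 89 in the αCSF1R tumor. It was listed in 9 of the 12 libraries, with 6 UMIs in the αCSF1R tdLN, 2 in the Ctrl-IgG tdLN and 2 in the BF10 tumor. The larger Trbv5 and Trbj1-3 clonotype had 99 UMIs and the smaller 76, both at 0 in the other 3 spleens, and both were found in the αCSF1R tdLN with 13 and 21 UMIs. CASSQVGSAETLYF with Trbv5 and Trbj2-3 had 54 UMIs for αCSF1R, 0 for Ctrl-IgG and 3 each for IL-10-Fc and BF10. It had 16 UMIs in the αCSF1R tdLN, 4 in the Ctrl-IgG tdLN and 16 in the BF10 tumor, and 0 in the αCSF1R tumor. In the Ctrl-IgG spleen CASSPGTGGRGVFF led with 118 UMIs, 0.0769% of β chain UMIs, against 0 for αCSF1R, and had 34 in the Ctrl-IgG tumor. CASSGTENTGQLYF had 45 UMIs in the Ctrl-IgG spleen, 0 in the αCSF1R spleen and 235 in the Ctrl-IgG tumor. Of the 10 largest β chain clonotypes, 7 of the αCSF1R list were at 0 in the Ctrl-IgG spleen and 7 of the Ctrl-IgG list at 0 in the αCSF1R spleen. Most β chain clonotypes of any size were seen in 1 of these spleens alone, since 11.03% of all those of αCSF1R and 8.98% of all those of Ctrl-IgG were listed in the other. The tdLN of the same treatment listed 9 of the αCSF1R 10 and 8 of the Ctrl-IgG 10, and the tumor 4 and 5.

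Beyond the top 10, the 385 large single-sequence β chains of the αCSF1R spleen were looked up by nucleotide sequence in the other libraries. The αCSF1R tdLN listed 65, or 16.9%, and the other 3 tdLN libraries listed 16 to 30. The BF10 tdLN, which listed 151105 nucleotide clonotypes in all against 151480 for αCSF1R, held 30 of them. The αCSF1R tumor, with only 2493 listed, held 15, and the Ctrl-IgG tumor, with 9466, held 2. The longer lists of the IL-10-Fc tumor, 54779, and the BF10 tumor, 90267, held 16 and 23. Of the 140 of the Ctrl-IgG spleen, its own tdLN with 71579 listed held 22, or 15.7%, and the αCSF1R tdLN with 151480 held 18. The labels do not say whether spleen, tdLN and tumor of a treatment came from the same mice.

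The 10 most shared β chains had ratios of shares (αCSF1R over Ctrl-IgG) from 0.640 to 1.59, a range that their choice by a high share in both spleens limits. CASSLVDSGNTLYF with Trbv16 and Trbj1-3 had 31 UMIs for αCSF1R, 26 for Ctrl-IgG, 31 for IL-10-Fc and 18 for BF10, with a ratio of shares of 1.18 (0.702 to 1.99). The Trbv1 and Trbj1-1 clonotype printed above had 29, 20, 27 and 27 UMIs in that order, and a further clonotype of these segments and length 20, 31, 47 and 31. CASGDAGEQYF with Trbv13-2 and Trbj2-7 had 19, 18, 26 and 23. Each of these 10 was listed in at least 9 of the 12 libraries and drew on at least 4 nucleotide sequences in the αCSF1R spleen. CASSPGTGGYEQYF was present with both Trbv19 and Trbv12-2, each time with Trbj2-7. The Trbv19 form had 41 UMIs for αCSF1R and 6 for Ctrl-IgG, and the Trbv12-2 form 16 and 21.

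**Figure D2:**
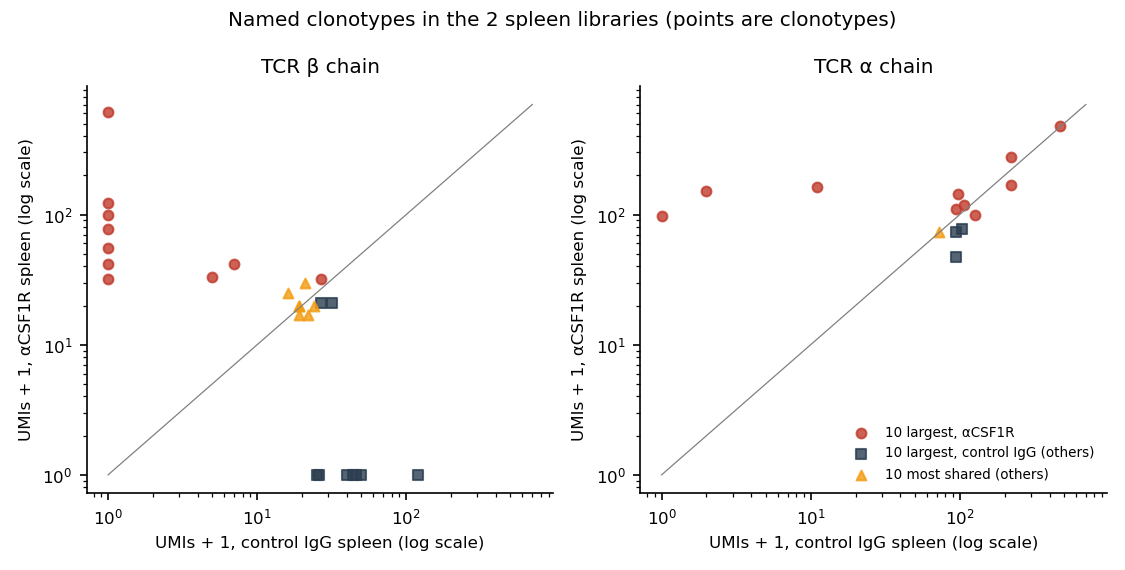
UMIs + 1 of the named clonotypes in the Ctrl-IgG spleen (x axis) and the αCSF1R spleen (y axis), both on log scales, with 1 point per clonotype and a line of equal counts. A clonotype in more than 1 group is drawn in the first of them in the legend. For β chains 7 points lie at 0 UMIs on each axis, and for α chains most points follow the line, apart from 3 of the αCSF1R list.

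For the α chain the largest clonotypes were mostly shared. Their sequences are given for contrast with the β chains, again with capitals for bases that match neither germline segment. The first 3 are public and the last 3 are the clonotypes among the αCSF1R 10 with the fewest UMIs in the Ctrl-IgG spleen.
both, Trav11 or Trav11d and Traj18: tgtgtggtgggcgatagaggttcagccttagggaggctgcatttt
both, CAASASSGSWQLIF, Trav14-3 and Traj22: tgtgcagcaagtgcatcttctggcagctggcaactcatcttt
both, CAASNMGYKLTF, Trav7d-2 and Traj9: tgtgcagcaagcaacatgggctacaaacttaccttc
αCSF1R, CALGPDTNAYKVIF, Trav6d-6 and Traj30: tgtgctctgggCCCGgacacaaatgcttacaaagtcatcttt
αCSF1R, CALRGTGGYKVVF, Trav12n-3 and Traj12: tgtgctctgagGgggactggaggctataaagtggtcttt
αCSF1R, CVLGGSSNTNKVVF, Trav6-2 and Traj34: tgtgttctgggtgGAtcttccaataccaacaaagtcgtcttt

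Of the 10 most shared α chains, 8 had a leading sequence made of germline V and J bases alone. The largest α chain clonotype of both spleens was the Trav11 or Trav11d chain with Traj18, the invariant chain of NKT cells that see lipids on CD1d. It had 474 UMIs for αCSF1R and 467 for Ctrl-IgG, but 44 for IL-10-Fc and 328 for BF10. All Trav11 or Trav11d chains with Traj18 together took 0.515% (0.474% to 0.559%) and 0.477% (0.439% to 0.519%) of α chain UMIs in the αCSF1R and Ctrl-IgG spleens, 0.0470% in the IL-10-Fc spleen and 0.328% in the BF10 spleen. Trav1 with Traj33, the pairing of MAIT cells, which see microbial vitamin B metabolites, had 15 and 23 UMIs. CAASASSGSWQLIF occurred with several Trav14 members, which the V assignment could not always separate. Its Trav14-2 or Trav14n-2 form had 276 and 219 UMIs, its Trav14d-3-dv8 or Trav14n-3 form 169 and 218, and its Trav14-3 form 117 and 105.

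Against this, 3 α chains of the αCSF1R spleen stood far above the Ctrl-IgG spleen. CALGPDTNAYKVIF had 163 UMIs for αCSF1R, 10 for Ctrl-IgG, 4 for IL-10-Fc and 15 for BF10, a ratio of shares to Ctrl-IgG of 17.1 (9.01 to 32.3). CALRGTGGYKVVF had 150, 1, 20 and 3 UMIs, with a ratio of 157 and an interval as wide as 21.97 to 1122. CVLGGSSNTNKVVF had 96 and 0 UMIs, at least 33.5-fold higher for αCSF1R. The αCSF1R tumor held 62, 4 and 19 UMIs of these chains, and the αCSF1R tdLN 10, 10 and 4. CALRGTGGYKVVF had more UMIs in the Ctrl-IgG tumor, 11, and in the IL-10-Fc tumor, 13. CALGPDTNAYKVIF had 6 UMIs in the Ctrl-IgG tdLN and 9 in the IL-10-Fc tdLN. Bulk libraries do not pair chains, so which α chain belongs to which β chain is unknown. In the Ctrl-IgG list, 10 of the 10 largest α chains were also found in the αCSF1R spleen. The one with the lowest ratio was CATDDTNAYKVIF with Trav8-1 and Traj30, at 46 UMIs for αCSF1R and 93 for Ctrl-IgG, or 0.518 (0.364 to 0.737).

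As lists, the β chain repertoires shared 6676 clonotypes, 11.03% of those of αCSF1R and 8.98% of those of Ctrl-IgG, which held 14.5% and 12.4% of their UMIs. Of α chain clonotypes 6959 were shared, 18.4% and 14.7% of the lists, with 29.3% and 25.4% of UMIs. The Morisita-Horn index, which is 0 for no shared UMIs and 1 for equal composition, was 0.103 (0.098 to 0.107) for the β chain and 0.609 (0.595 to 0.623) for the α chain. Without the largest clonotype of each library it was 0.137 and 0.495. The share of clonotypes found in the other library grew with size up to 49 UMIs. For αCSF1R it was 8.57% of β chains with 1 UMI and 56.3% of those with 20 to 49, and 0 of the 5 with at least 50. Large single-sequence β chains of the αCSF1R spleen were listed for Ctrl-IgG in 14.8% of cases, and the other large ones in 70.7%. For the Ctrl-IgG spleen these shares were 21.4% and 71.4%.

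Shared chains had shorter joints. Bases matching neither germline V nor J numbered 7.98 ± 3.75 (mean ± SD over 8620 nucleotide sequences) in β chains of the αCSF1R spleen that were listed in both spleens, and 10.6 ± 6.15 in the 55774 listed in that spleen alone. In the Ctrl-IgG spleen the means were 7.94 and 10.5. For α chains the means were 2.89 and 4.38 in the αCSF1R spleen and 2.88 and 4.28 in the Ctrl-IgG spleen. Across all sequences, joints were alike between the treatments, with means of 10.3 and 10.2 bases for the β chain and 4.06 and 4.03 for the α chain. α chain sequences with no such base made up 9.28% for αCSF1R and 8.78% for Ctrl-IgG.

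CDR3 length differed little. The mean over β chain UMIs was 13.89 residues for αCSF1R and 13.87 for Ctrl-IgG, a difference of 0.023 (0.010 to 0.037), with SDs of 1.96 and 1.92 over UMIs. Lengths of 17 residues, which include the Trbv1 and Trbj2-1 clonotype, took 2.48% of β chain UMIs (2.40% to 2.56%) against 1.95% (1.88% to 2.02%). Without the largest clonotype of each library these shares were 2.09% and 1.95%, a difference of 0.14 points (0.04 to 0.24) in place of 0.53. At 14 residues, the most frequent length, the shares were 31.1% and 31.6%. The mean over α chain UMIs was 13.55 residues in both, and the interval of their difference, -0.014 to 0.009, held 0. With each clonotype counted once, the β chain means were 13.94 and 13.93, and the interval of their difference, -0.011 to 0.032, held 0.

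**Figure D3:**
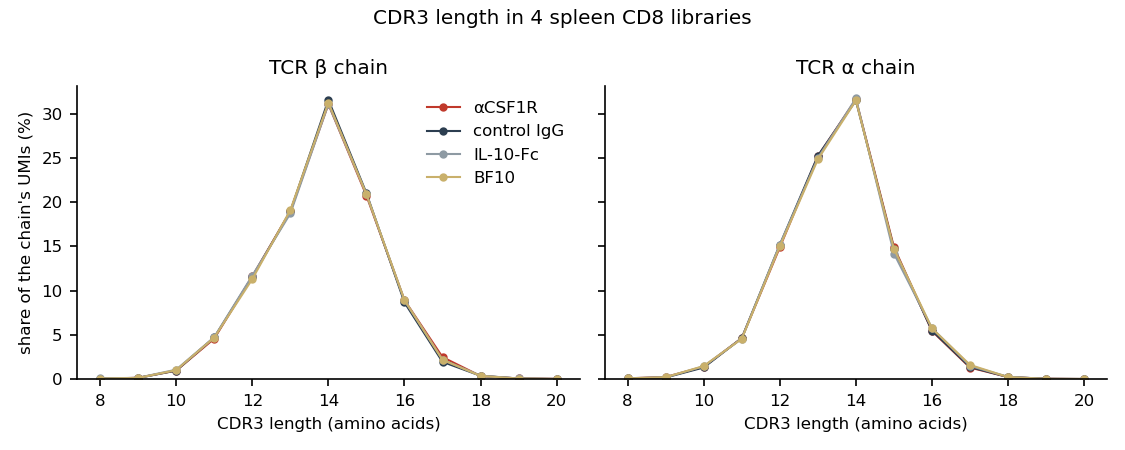
Share of each chain's UMIs (y axis, %) at each CDR3 length in amino acids (x axis) in the 4 spleen CD8 libraries, 1 line per library. The lines lie almost on top of each other, and the gap at 17 residues of the β chain, 2.48% for αCSF1R and 1.95% for Ctrl-IgG, is 2.09% and 1.95% without the largest clonotypes.

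Trbv usage was similar in order and differed in detail. Trbv segments lie in a cluster on chromosome 6, and each brings its own CDR1 and CDR2 loops, which touch mainly the MHC. In both spleens Trbv29, Trbv19 and Trbv16 had the highest shares of β chain UMIs. The total variation distance, the share of UMIs that would have to change segment to make the usage equal, was 3.21% (2.86% to 3.56%). It was 3.42% between Ctrl-IgG and IL-10-Fc and 6.38% between Ctrl-IgG and BF10, and 3.21% was the lowest of the 6 pairs of spleens. Counting error alone makes such a distance positive, here and below, by an amount that was not estimated. Its interval takes the segments with the higher share as given, so it does not test whether usage differed. Of 23 Trbv regions with at least 100 UMIs in the 2 libraries together, 2, or 8.7%, had a ratio of shares (αCSF1R over Ctrl-IgG) of at most 0.8 or at least its inverse. These were segments of low use, Trbv30 at 0.356% for αCSF1R and 0.239% for Ctrl-IgG, and Trbv24 at 0.177% and 0.227%. Both were named after their values were seen, and GENCODE M21 annotates Trbv24 as a pseudogene.

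Among segments with at least 0.5% of UMIs, the ratio of shares was highest for Trbv19 (GRCm38 chr6:41178375-41179048). It had 17611 UMIs for αCSF1R, or 11.4% (11.2% to 11.5%), and 14992 for Ctrl-IgG, or 9.77% (9.62% to 9.92%), next to 10.2% for IL-10-Fc and 8.51% for BF10. Its ratio was 1.17 (1.14 to 1.19), and 1.09 with each clonotype counted once. Trbv2 followed with 1.54% and 1.37%, Trbv23 with 0.625% and 0.562%, Trbv3 with 8.57% and 7.87%, and Trbv17 with 4.14% and 3.87%. Of these, Trbv19 and Trbv3 were higher in the αCSF1R spleen than in each of the other 3. Across the 23 Trbv regions with at least 100 UMIs, 5 were highest there. At the low end were Trbv13-2 (chr6:41121396-41121832) with 5.11% and 5.75%, a ratio of 0.889 (0.863 to 0.916), Trbv4 with 2.69% and 2.98%, and Trbv12-1, Trbv13-1 and Trbv13-3 with ratios of 0.922 to 0.924. These 5 had their lowest share of the 4 spleens under αCSF1R, as had 10 of those 23. They were chosen for a low ratio, so a share under that of Ctrl-IgG was given. Thus all 3 members of the Trbv13 family were among the lowest ratios, and their ratios stayed between 0.887 and 0.945 with each clonotype counted once. The IL-10-Fc spleen was close to αCSF1R here. Trbv13-2, Trbv13-1 and Trbv13-3 had 5.17%, 4.38% and 5.06% for IL-10-Fc, within the counting intervals of αCSF1R, and 6.23%, 5.59% and 5.76% for BF10.

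**Figure D4:**
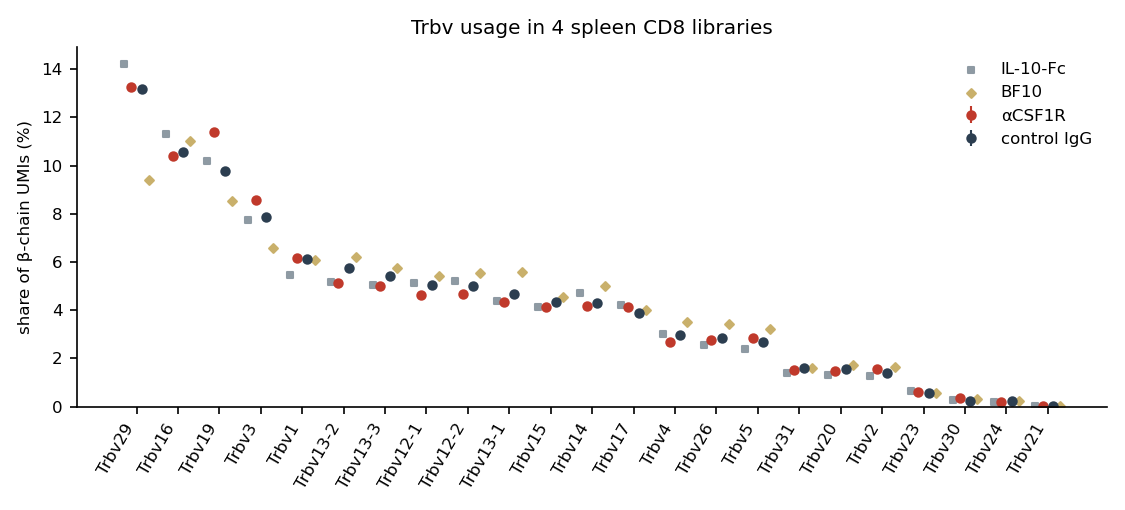
Share of β chain UMIs (y axis, %) of the 23 Trbv regions with at least 100 UMIs (x axis, ordered by Ctrl-IgG) in the 4 spleen CD8 libraries. Bars on the αCSF1R and Ctrl-IgG points are 95% Wilson intervals, mostly smaller than the points. Trbv19 lies at 11.4% for αCSF1R and 9.77% for Ctrl-IgG, whereas Trbv29 lies at 13.3% and 13.2%.

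For Trbj segments, which lie in 2 clusters downstream, usage leaned to the second cluster in the αCSF1R spleen. Trbj2 segments took 70.4% of β chain UMIs (70.2% to 70.7%) for αCSF1R, 68.8% (68.6% to 69.0%) for Ctrl-IgG, 71.1% for IL-10-Fc and 69.4% for BF10, so the αCSF1R value lay within the range of the other spleens. With each clonotype counted once it was 69.5% and 68.4%. All 6 Trbj1 segments had ratios under 1, from 0.930 for Trbj1-4 to 0.976 for Trbj1-5, whose interval held 1. The highest ratios were those of Trbj2-3 at 1.06, Trbj2-1 at 1.05 and Trbj2-5 at 1.04. Without the largest clonotype of that segment in each library the ratio of Trbj2-1 was 1.03. None of the 12 Trbj segments (0%) lay outside 0.8 and its inverse, and the total variation distance was 1.80% (1.45% to 2.15%).

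Among 250 Trbv and Trbj pairs with at least 50 UMIs in the 2 libraries together, 16, or 6.4%, differed by at least 1.5-fold, 7 with a higher share for αCSF1R and 9 with a lower one. The highest ratio among pairs of at least 0.1% of UMIs was that of Trbv5 with Trbj1-3, with 380 UMIs for αCSF1R and 146 for Ctrl-IgG, or 2.58 (2.13 to 3.13). Its largest clonotype held 26.1% of the αCSF1R UMIs of the pair. Without the largest clonotype of the pair in each library the ratio was 1.98. The pair had 69 clonotypes for αCSF1R and 70 for Ctrl-IgG, a ratio of 1.21 with each clonotype counted once, and 3 of its clonotypes had 99, 76 and 32 UMIs for αCSF1R. Trbv1 with Trbj2-1 had 1777 and 1067 UMIs, a ratio of 1.65 (1.53 to 1.78). It was 1.13 without the largest clonotype of the pair in each library and 1.06 with each clonotype counted once. In the other 8 pairs named here the largest clonotype held at most 6% of the αCSF1R UMIs of the pair. Of the Ctrl-IgG UMIs it held 11.7% in Trbv31 with Trbj1-3 and at most 6.25% in the others. Without the largest clonotypes of the pair the ratio of Trbv31 with Trbj1-3 was 0.645. Trbv19 with Trbj2-5 had 1809 and 1262 UMIs, or 1.42 (1.32 to 1.53), and 1.23 with each clonotype counted once. Trbv23 with Trbj2-1 and with Trbj2-7 had ratios of 1.72 and 1.45. The 5 lowest ratios were all of Trbj1 pairs, Trbv4 with Trbj1-3 at 0.580 (0.453 to 0.743), Trbv31 with Trbj1-3 at 0.60, Trbv26 with Trbj1-4 at 0.630, Trbv14 with Trbj1-6 at 0.649 and Trbv5 with Trbj1-4 at 0.689.

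For the α chain, with each V region taken as assigned, the total variation distance of Trav usage was 4.71% (4.29% to 5.12%), against 4.43% between Ctrl-IgG and IL-10-Fc and 5.84% between Ctrl-IgG and BF10. The mouse Trav locus on chromosome 14 holds repeated blocks of near-identical genes (names with d or n), and 27.9% of αCSF1R and 27.3% of Ctrl-IgG α chain UMIs were assigned to more than 1 gene. By V family the distance was 2.70%. Of 116 Trav regions with at least 100 UMIs, 20, or 17.2%, lay outside 0.8 and its inverse, 7 higher and 13 lower for αCSF1R. By family 1 did so, and 6 did so among UMIs assigned to a single gene, so values of single members of duplicated families are uncertain.

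The highest ratio among Trav regions of at least 0.5% of UMIs was 1.23 (1.11 to 1.36), for Trav21-dv12 with 0.715% for αCSF1R and 0.582% for Ctrl-IgG. Trav7n-6 had 0.638% and 0.522%, and its ratio of 1.22 was 1.15 without the largest clonotype of that segment in each library. Trav9d-4 had a ratio of 1.21, which was 1.05 with each clonotype counted once. Trav14-2 or Trav14n-2 had 4.87% and 4.17% and Trav7d-2 5.51% and 4.81%. These 5 had their highest share of the 4 spleens under αCSF1R, as had 29 of all 116 Trav regions with at least 100 UMIs. The lowest ratio was 0.698 (0.619 to 0.788), for Trav3-3 or Trav3d-3 with 0.397% and 0.569%. Trav7-5 had 1.01% and 1.28%, Trav16n (chr14:53351028-53351621) 2.23% and 2.80%, Trav13-2 or Trav13n-2 0.698% and 0.874%, and Trav5d-4 or Trav5n-4 0.701% and 0.846%. These 5 were lowest of the 4 spleens under αCSF1R, as were 43 of the 116. Both sets of 5 were chosen by their ratio to Ctrl-IgG, which already sets them apart from that spleen.

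**Figure D5:**
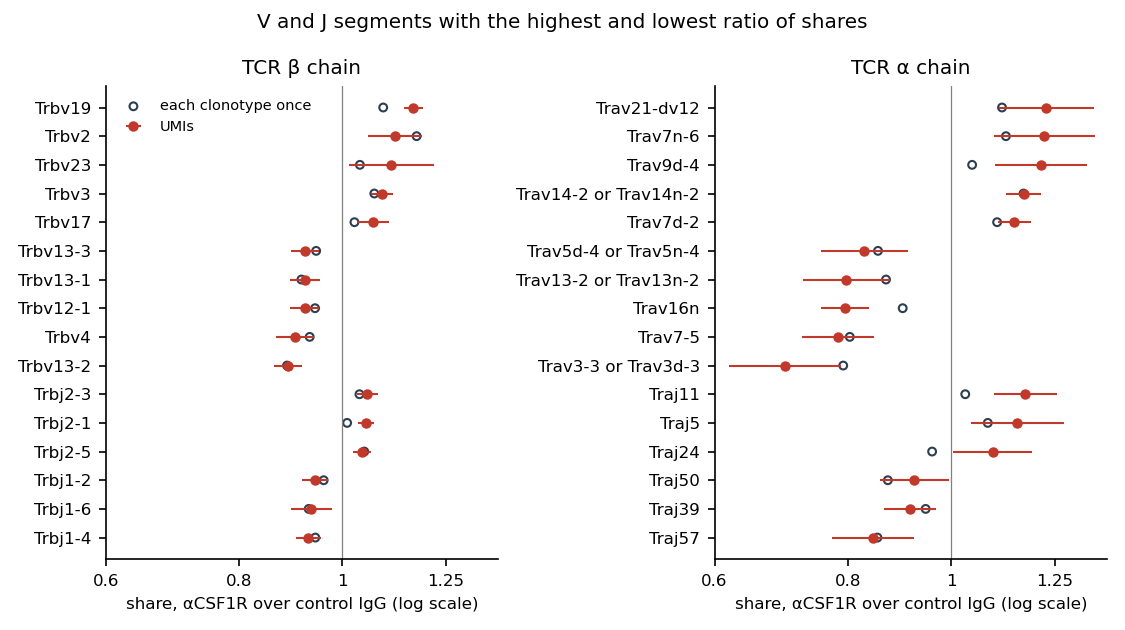
Ratio of shares, αCSF1R over Ctrl-IgG (x axis, log scale), of the 5 V and 3 J segments with the highest and the lowest ratio in each chain. Filled points are shares of UMIs with 95% Katz intervals, open points count each clonotype once, and the line marks equal shares. For Trbv the points run from 0.889 to 1.17, and for Trav from 0.698 to 1.23.

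Traj usage was close in the 2 spleens. None of the 41 Traj segments with at least 100 UMIs (0%) lay outside 0.8 and its inverse, and the total variation distance was 1.84% (1.43% to 2.25%). Early rearrangements use the V-proximal Traj segments and later ones those further away. Traj58 to Traj40 took 21.5% of α chain UMIs for αCSF1R and 21.99% for Ctrl-IgG, Traj39 to Traj20 53.1% and 53.4%, and Traj19 to Traj2 25.4% (25.1% to 25.6%) and 24.6% (24.3% to 24.8%). Traj11 had the highest ratio, 1.17 (1.10 to 1.26), which was 1.03 with each clonotype counted once, and Traj57 the lowest, 0.845 (0.774 to 0.923).

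Of 1228 Trav and Traj pairs with at least 50 UMIs, 298, or 24.3%, differed by at least 1.5-fold, 152 higher and 146 lower for αCSF1R. Among pairs of at least 0.1% of UMIs in either library, the highest ratio was that of Trav6-2 with Traj34, which had 116 and 23 UMIs, a ratio of 5.28 (3.37 to 8.25), and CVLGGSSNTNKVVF held 82.8% of the αCSF1R UMIs. Without the largest clonotype of the pair in each library the ratio was 1.05. Pairs of Traj11 came next, with Trav7d-2 at 2.63 (1.99 to 3.48) and with Trav14-1 or Trav14n-1 at 2.26 (1.65 to 3.08). Without the largest clonotypes of each pair these ratios were 2.77 and 2.41. At the low end were Trav16n with Traj49 at 0.416 (0.308 to 0.561) and Trav8d-1 with Traj22 at 0.465 (0.367 to 0.588). With each clonotype counted once these ratios were 0.821 and 0.502, and without the largest clonotypes of each pair 0.450 and 0.358.

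γδ chains were few, with 2692 γ and 2133 δ UMIs for αCSF1R and 2959 and 2400 for Ctrl-IgG. A count of 0, read as at most 3 UMIs, allows a share of up to 0.111% of γ and 0.141% of δ UMIs for αCSF1R. Trgv2 led the γ chains with 40.8% for αCSF1R and 45.4% for Ctrl-IgG, a ratio of 0.897 (0.845 to 0.953). Trgv1 had 14.9% and 13.5%, Trgv3 11.5% and 12.4%, Trgv4 10.1% and 9.26% and Trgv6 4.61% and 3.75%, and a further 15.3% and 12.8% were assigned to Trgv1 or Trgv3. The invariant Trgv6 and Trgj1 chain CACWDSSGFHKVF, known from γδ cells that make IL-17, had 2558 to 5356 UMIs in the tdLN libraries. The titles of those libraries do not name CD8. In the αCSF1R and Ctrl-IgG spleens, whose titles do, it had 87 and 73. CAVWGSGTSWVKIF with Trgv1 and Trgj4 had 58 and 17, and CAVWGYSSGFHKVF with Trgv2 and Trgj2 37 and 77. Among δ chains Trdv2-2 led with 22.6% and 24.8%. The ratio was furthest from 1 for Trav13-4-dv7 on the low side, with 6.09% and 9.75% or 0.625 (0.509 to 0.768). Trdv4 had 2.86% and 1.75%, and its Trdj2 clonotype of 17 residues held 49 and 35 UMIs.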

How the data were processed

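CD8+ T cell RNA was reverse transcribed with primers in the constant regions of all TCR chains, tagged with UMIs and sequenced by the authors. Qiagen's portal assigned V, J and CDR3, and the submitters' processing notes name mm10. The portal's version and germline set are not given in the sources used here. The authors deposited counts of UMIs per clonotype with at least 3 to at least 7 reads, not normalized, and a fraction of each chain's UMIs, which was not used. UMI counts were summed here per V, J and CDR3 amino acid sequence.

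The members and lists were chosen with earlier results of these data known. Shares have Wilson intervals, differences Newcombe intervals and ratios of shares Katz intervals. Clonotype numbers were rarefied analytically with an unconditional variance, and the Morisita-Horn interval is a delta-method one. A count of 0 was read as at most 3 UMIs. Germline ends and positions came from GRCm38 with GENCODE M21, and 0.155% of αCSF1R and 0.132% of Ctrl-IgG α chain sequences had no such segment. With 1 library a side no test was made. Named segments are the 5 highest and 5 lowest ratios of V regions with at least 0.5% of UMIs and of V-J pairs with at least 0.1%, and the 3 highest and lowest of J segments. Named clonotypes come from the 10 largest of each library and the 10 most shared, and the 3 largest of each γ and δ chain. Rarefaction, the total variation distance and the Morisita-Horn index were tried on simulated data. The errors allowed there were large beside the J distances and the β chain index. Python 3.11.15, numpy 2.4.6, pandas 2.3.3 and scipy 1.17.1 were used.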

Additional observations from a re-analysis of the deposited data

How the results depend on the processing

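No paired analysis was possible because each treatment has 1 spleen library, and no library could be left out for the same reason. Intervals cover counting error only, not the spread between mice. Of 49 values recomputed, 16 stayed within the counting interval (or within 1.5 times a count), 33 moved and 0 reversed; the cause of the moves was not tested. Leaving out the largest clonotype of each library, Morisita's original index, and large clonotypes counted at 7 reads were chosen after seeing the data. Values follow for the β chain, then the α chain. With UMIs of at least 7 reads the clonotype ratio was 0.875 and 0.880, the Morisita-Horn index 0.0931 and 0.560, and the difference of the 100 largest 0.548 points for the β chain. At that setting the ratio of numbers of clonotypes of at least 10 UMIs was 5.38 and 3.03, and of those with 1 leading sequence 9.71 and 4.18. The clonotype ratio was 0.973 and 0.930 with at least 2 UMIs, 0.806 and 0.804 by nucleotides, and 0.796 for the α chain as listed. The index was 0.0210 and 0.420 by nucleotides, 0.354 and 0.855 by amino acids without V and J, 0.137 and 0.495 without the largest clonotypes, and 0.129 and 0.687 as Morisita's original index. Without the largest clonotypes the difference of the 100 largest β chains was 0.374 points, and that of 17-residue shares 0.141 points. With each clonotype counted once, the distance was 1.17% for Trbj, 4.24% for β V-J pairs, 3.98% for Trav and 15.8% for α V-J pairs, and the α chain length difference -0.014 residues. Trav regions outside 0.8 and its inverse numbered 12 with each clonotype once, 1 by family and 6 with single-gene assignments, and the distance by family was 2.70%.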
